A study of Homo sapiens with 20 samples.

Results

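Interferon-stimulated genes are genes that cells switch on when they sense interferon or nucleic acid in the wrong place. A set of 45 of them, chosen by gene symbol, was followed through RNA-seq counts of U2-OS cells, a human osteosarcoma line. All 45 were found among the 20314 genes of the table, and 40 of them had enough reads to be tested. The 20 libraries fell into 4 groups of 5 biological replicates. Untreated cells were non-irradiated, and irradiated cells received 20 Gy ionizing radiation (IR) and were harvested 1.5 h (90 min in the labels) or 7 days later, the second being the time of senescence. The last group was non-irradiated and carried a short hairpin RNA (shRNA) against NFKBIA, the gene of the NF-κB inhibitor IκBα. For each gene it was asked whether the level found at 7 days post-IR was also reached by the knockdown in the absence of DNA damage.

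Type I interferons bind a receptor pair on the cell surface and activate the kinases JAK1 and TYK2. These phosphorylate STAT proteins, STAT2 among them, which enter the nucleus together with IRF9 and bind interferon-stimulated response elements (ISREs) in the promoters of their target genes. Many of these promoters can also be reached without secreted interferon, by IRF factors that are activated downstream of RNA and DNA sensors, and some carry binding sites for NF-κB.

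The methods of the study describe doxycycline-inducible shRNA vectors with puromycin selection, and scrambled shRNA cells given doxycycline as controls. The labels show no scrambled group among these libraries, so that vector, selection and doxycycline cannot be told apart from the loss of NFKBIA. NFKBIA itself was at 31.3 ± 7.25 CPM (counts scaled to a common library size, mean ± SD, n = 5) in untreated cells and at 12.2 ± 0.667 CPM in the knockdown, without overlap between libraries. On the log2 scale the fold change was -1.36 (SE 0.11, edgeR adjusted p = 4.87e-09). At 1.5 h post-IR NFKBIA was at 82.0 ± 5.27 CPM and at 7 days at 30.8 ± 1.59 CPM, the latter within the range of untreated cells.

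The libraries held 22535659 to 40390961 reads counted on genes. The untreated libraries shared no sequencing lane with the 7 days or the knockdown libraries. Untreated replicate 5 was the shallowest library, ran on another lane than the other 4 of its group and correlated least with them (lowest r 0.970, against at least 0.994 within each of the other groups). The 10 mesenchymal and osteoblast markers summed to 1026 to 1326 RPKM (CPM per kilobase of gene) in untreated cells, 997 to 1043 at 1.5 h, 850 to 932 at 7 days and 941 to 1000 in the knockdown, mostly from VIM, SPARC and COL1A1. Single markers moved apart: at 7 days against untreated cells SPARC was at -0.74 and ALPL at 0.77 on the log2 scale, and in the knockdown COL1A1 was at -1.68 and ALPL at -1.958, each called. Between 7 days and the knockdown ALPL differed by 2.73, COL1A1 by 1.25, COL1A2 by 0.69 and SPARC by -0.76, each called. COL1A2 and BGLAP stayed under 1 RPKM on average, and TWIST1 and SP7 had at most 3 counts. Markers of plasmacytoid dendritic cells, strong producers of type I interferon, had at most 3 counts each. The 8 leukocyte markers were low but differed between groups, with summed levels of 0.524 to 1.01 RPKM in untreated cells, 0.467 to 0.745 at 1.5 h, 1.46 to 1.61 at 7 days and 0.296 to 0.415 in the knockdown. Among them ITGAM was called at 7 days (1.48) and in the knockdown (-0.76), and PTPRC in the knockdown (-1.52). Against the knockdown, ITGAM (2.24) and PTPRC (1.92) were called higher at 7 days. The 4 epithelial markers summed to 1.61 to 2.29 RPKM in untreated cells, 1.56 to 1.995 at 1.5 h, 1.12 to 1.38 at 7 days and 1.23 to 1.45 in the knockdown. At 7 days KRT19 was higher (1.82) and EPCAM (-0.86), CDH1 (-0.72) and KRT5 (-1.21) lower, and in the knockdown CDH1 (-2.01) and KRT5 (-2.85) were lower. KRT19 passed the low-count filter only through the 7 days libraries, with 12 to 23 reads there and at most 8 at 1.5 h. Its values are therefore a description. Against the knockdown, CDH1 (1.29), KRT5 (1.635) and KRT19 (1.72) were higher at 7 days and EPCAM (-0.68) lower. The endothelial marker VWF was also higher (0.91). The part of these markers in the results was not tested.

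The promoters of some members are shown first, since members that carried similar ISREs differed in their response. The RefSeq promoter table (GRCh38.p14, whereas the counts were made on hg19) held 38 of the 45 members, without IFIT2, OAS2, OASL, MX2, DHX58, USP18 and TRIM22. The core of the ISRE was searched on both strands as GAAANNGAAA or TTTCNNTTTC in the 300 bases from 250 before to 50 after the start of each gene. It was found in 24 of 38 members (63.2%) and in 1255 of all 35116 promoters of that length (3.57%). The κB consensus was found in 5 of 38 members (13.2%) and in 5.91% of all promoters. Of the members called higher at 7 days and in the table, 7 of 14 held the ISRE core, against 13 of 18 that were tested and not called.

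The 200 bases before the start of 7 members follow, 5′ to 3′ on the strand of the gene, with the matches in capitals. IFIT1 (chr10:89392423-89392622, plus strand) and IFIT3 (chr10:89327797-89327996, plus strand) lie close together and differed in direction at 7 days. ISG15 (chr1:1013297-1013496, plus strand) was called at 7 days and not in the knockdown. IFI44 (chr1:78649589-78649788, plus strand) and BST2 (chr19:17405631-17405830, minus strand) were called in both. RSAD2 (chr2:6865685-6865884, plus strand) had the largest log2 fold change at 7 days, and SAMD9L (chr7:93148386-93148585, minus strand) was higher in the knockdown than at 7 days.
IFIT1: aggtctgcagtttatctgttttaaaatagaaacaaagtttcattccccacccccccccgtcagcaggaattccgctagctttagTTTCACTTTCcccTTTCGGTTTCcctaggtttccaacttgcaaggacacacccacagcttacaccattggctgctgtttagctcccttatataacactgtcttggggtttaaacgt
IFIT3: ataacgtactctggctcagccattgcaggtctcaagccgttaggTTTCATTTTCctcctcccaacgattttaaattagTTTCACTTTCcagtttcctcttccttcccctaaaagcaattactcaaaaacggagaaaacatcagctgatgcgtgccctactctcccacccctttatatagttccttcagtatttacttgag
ISG15: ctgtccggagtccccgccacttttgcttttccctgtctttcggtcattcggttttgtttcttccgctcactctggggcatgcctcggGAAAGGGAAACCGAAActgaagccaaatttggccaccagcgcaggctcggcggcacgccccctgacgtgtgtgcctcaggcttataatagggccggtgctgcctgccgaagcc
IFI44: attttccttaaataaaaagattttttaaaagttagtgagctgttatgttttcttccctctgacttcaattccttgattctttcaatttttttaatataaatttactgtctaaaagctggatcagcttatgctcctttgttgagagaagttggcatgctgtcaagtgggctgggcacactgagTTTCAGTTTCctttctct
BST2: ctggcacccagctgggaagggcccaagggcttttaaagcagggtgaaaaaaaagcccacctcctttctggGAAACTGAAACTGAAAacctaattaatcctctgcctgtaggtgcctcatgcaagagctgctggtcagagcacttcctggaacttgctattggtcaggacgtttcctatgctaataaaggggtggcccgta
RSAD2: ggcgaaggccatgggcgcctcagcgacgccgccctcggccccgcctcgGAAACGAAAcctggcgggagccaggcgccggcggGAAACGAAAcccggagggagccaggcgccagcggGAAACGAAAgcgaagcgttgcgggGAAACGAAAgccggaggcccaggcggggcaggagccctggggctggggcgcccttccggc
SAMD9L: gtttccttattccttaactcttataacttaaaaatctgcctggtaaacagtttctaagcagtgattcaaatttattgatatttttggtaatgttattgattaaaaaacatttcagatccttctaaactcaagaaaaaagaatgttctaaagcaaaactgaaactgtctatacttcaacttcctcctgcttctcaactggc
IFIT1 held matches at -116 and -103 from the start of the gene, and IFIT3 at -156 and -122. ISG15 held overlapping matches at -113 and -107, and BST2 at -130 and -124. IFI44 held 1 match at -18, and SAMD9L held none in these 200 bases. RSAD2 held none of this form, and its capitals mark repeats with a spacing of 1 base (GAAANGAAA or TTTCNTTTC), at -152, -118, -84 and -60. This second form was searched after the RSAD2 sequence had been read. It was present in 13 of 38 members (34.2%) and in 3.12% of all promoters. It was held by 5 of the 14 members called higher at 7 days, by 6 of the 18 that were tested and not called, and by 2 of the 5 that could not be tested. RSAD2 is among the 13 and among the 5 called higher, and its own match was fixed in advance. It also passed the low-count filter only through the 7 days libraries. These counts are therefore a description.

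The members differed widely in level in untreated cells. The secreted glycoprotein LGALS3BP was the most abundant per length at 81.2 ± 4.12 RPKM, followed by ADAR, the RNA-editing adenosine deaminase, at 48.5 ± 6.69 RPKM. TRIM25, a ubiquitin ligase of the RIG-I pathway, stood at 25.2 ± 4.04 RPKM and the small protein IFI6 at 24.1 ± 7.44 RPKM, and this pair did not differ beyond its spread. In untreated cells 13 members lay above 10 RPKM and 19 below 1 RPKM, among them OAS2 (0.0280 ± 0.0215 RPKM) and RSAD2 (0.0123 ± 0.0107 RPKM). The summed level of the 45 members was 369 ± 10.5 RPKM in untreated cells, 362 ± 6.64 at 1.5 h, 484 ± 9.91 at 7 days and 454 ± 2.80 in the knockdown. Without LGALS3BP the sums were 288 ± 7.52, 288 ± 6.79, 374 ± 8.26 and 338 ± 2.26 RPKM. The sums of all 45 in the 7 days and in the knockdown libraries did not overlap with those of untreated cells.

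**Figure D1:**
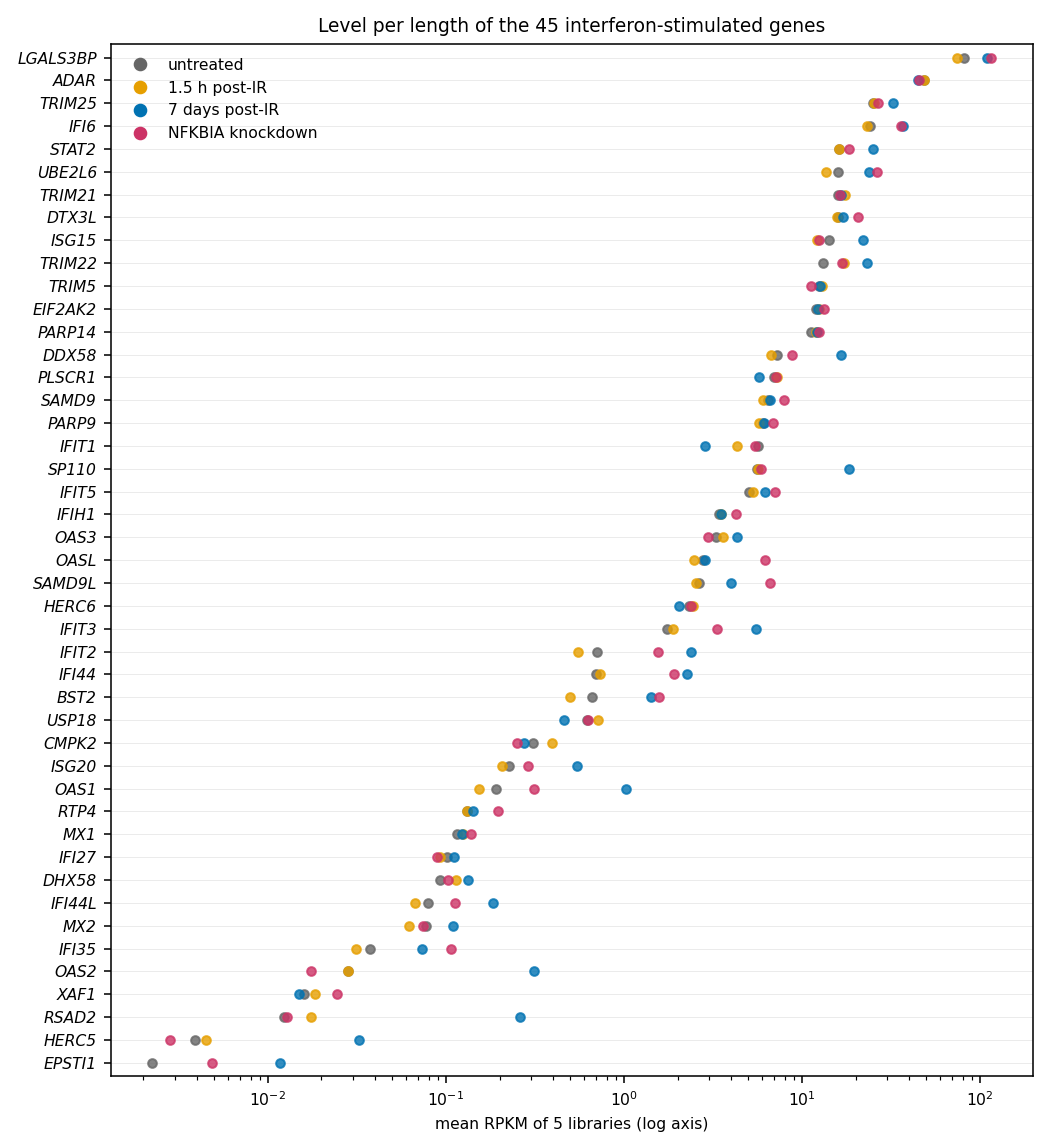
Mean level per length (RPKM, log axis, n = 5 libraries) of each member in the 4 groups, ordered by the level in untreated cells. LGALS3BP leads in untreated cells, and RSAD2 and OAS2, near the bottom, stand out at 7 days. EPSTI1 at 1.5 h, with 0 counts, has no point.

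At 1.5 h post-IR no change of the set was called. A member was called when its log2 fold change was over 0.5 in size and its edgeR adjusted p over all 14992 genes tested was under 0.05. By this rule 0 of 40 members were higher and 0 lower than in untreated cells, where 2.08% of all genes tested were higher and 1.57% lower. DESeq2 also called 0 in each direction, and at an unadjusted p under 0.05 there were 3 higher and 4 lower (7.5% and 10% of the members, against 15.7% and 17.7% of all genes tested). The median log2 fold change of the members was 0.00, against -0.03 for all genes tested. TRIM22, an antiviral ubiquitin ligase, had 104 ± 3.87 CPM at 1.5 h and 79.3 ± 11.7 CPM in untreated cells, with a log2 fold change of 0.39 (SE 0.07, edgeR adjusted p = 0.000723), which missed the threshold on size. Untreated replicate 5 lay low for this gene, at 59.7 CPM against 81.6 to 91.3 CPM in the rest of its group. With adjusted p alone TRIM22 was the 1 member higher and 3 were lower, with IFIT1 the lowest (-0.39). Of all genes tested 11.1% were higher and 10.2% lower by this measure. Lane 2 held untreated libraries alone, so that a fit with the lane as a factor takes its untreated level from replicate 5 only. Lane 6 held knockdown libraries alone, and that fit takes its knockdown level from knockdown replicate 1 only. Lane and group cannot be told apart for any comparison with untreated cells. The values of that fit for untreated cells and the knockdown are given among the alternatives as values of these single libraries.

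At 7 days post-IR 18 of 40 members were higher than in untreated cells and 1 was lower, where 16.7% and 14.4% of all genes tested were called. The median log2 fold change was 0.41, against 0.01 for all genes. In the NFKBIA knockdown 11 members were higher and 0 lower, where 5.18% and 7.53% of all genes tested were called, and the median was 0.19, against -0.01 for all genes. No member was lower in the knockdown at an unadjusted p under 0.05, where 25.1% of all genes tested were lower. None was lower in DESeq2 either, for which the share of all genes is not given. RSAD2 and OAS2 passed the low-count filter only through the 7 days libraries. Without them 16 of 38 members were higher at 7 days and 1 lower, with a median of 0.38. Without untreated replicate 5 the calls were 17 and 1 at 7 days and 9 and 0 in the knockdown. The shares of all genes in that fit are not given, and the shares above are not its background. Scaled by library size alone, the calls over all genes in the knockdown were 971 higher and 924 lower in place of 777 and 1129. In bulk RNA, a change in the share of cells that express a gene and a change in the RNA per cell cannot be told apart.

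Both comparisons share the untreated libraries, and their values are therefore set side by side. IFIT2, IFIT3, OAS1, UBE2L6, IFI6, IFI44, IFI44L, SAMD9L and BST2 were called higher in both. OAS2, MX2, DDX58, ISG15, TRIM22, SP110, ISG20, RSAD2 and STAT2 were called higher at 7 days and not in the knockdown. OASL and LGALS3BP were called in the knockdown and not at 7 days, and IFIT1 was lower at 7 days. The other 19 tested members were called in neither comparison, and 0 were called in opposite directions.

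**Figure D2:**
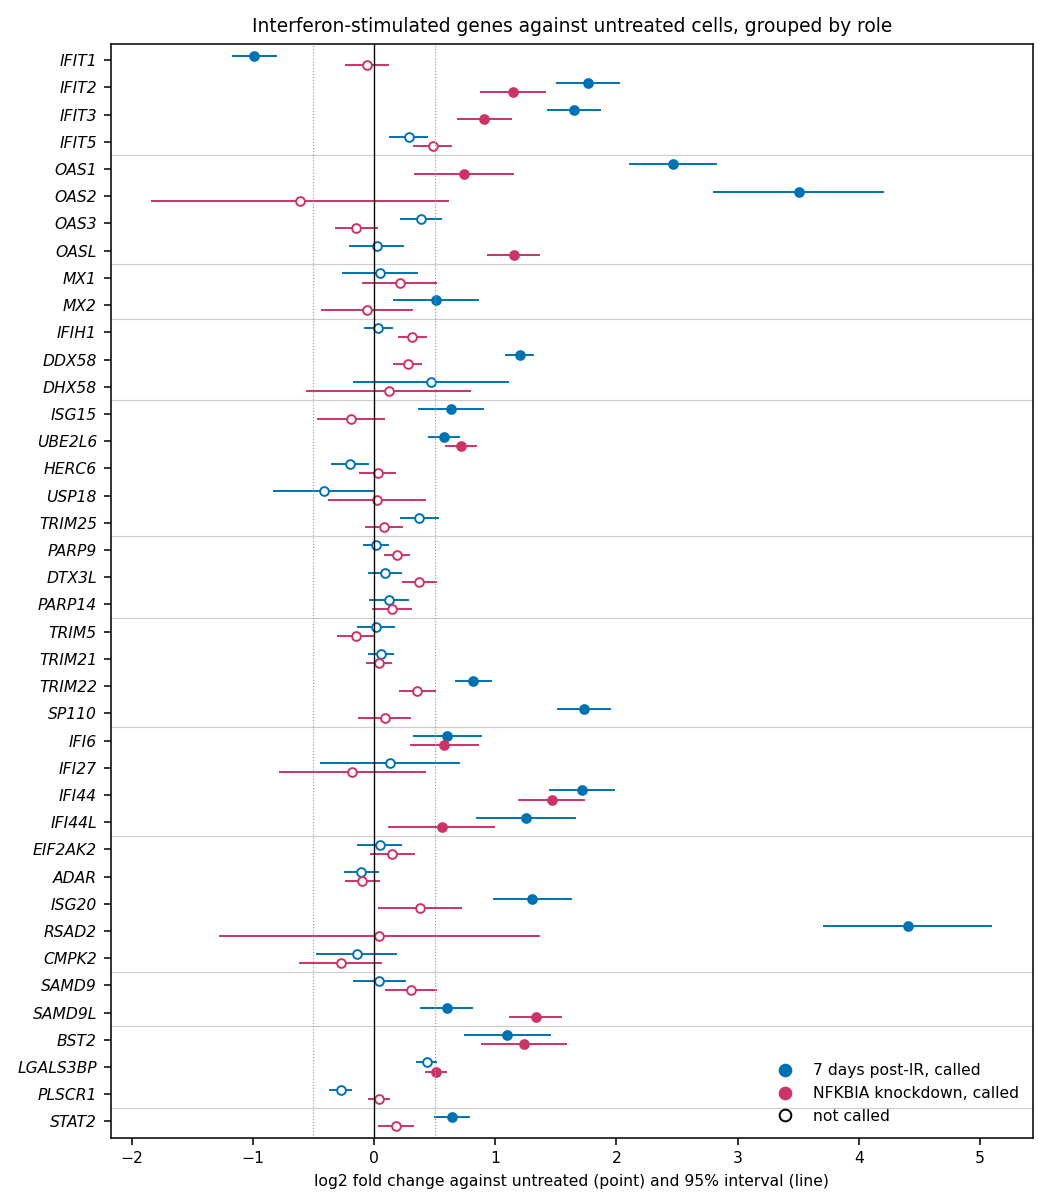
Log2 fold change against untreated cells (point) with its 95% interval (line) for the 40 tested members, grouped by role, at 7 days post-IR and in the NFKBIA knockdown. Filled points were called and dotted lines mark 0.5 on either side of 0. IFIT1 has the one filled point below 0, and OASL is filled in the knockdown alone.

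The direct comparison of 7 days post-IR with the knockdown does not use the untreated libraries as its base. Here 12 members were higher at 7 days and 3 lower, where 15.8% and 9.89% of all genes tested were called, and the median was 0.08, against 0.00 for all genes. RSAD2, OAS2, OAS1, SP110, ISG20, DDX58, ISG15, IFIT3, IFI44L, IFIT2, MX2 and OAS3 were higher at 7 days, and OASL, IFIT1 and SAMD9L were higher in the knockdown. Without RSAD2 and OAS2, 10 were higher and 3 lower, with a median of 0.02. Lane 5 held 3 libraries of the 7 days group and 1 of the knockdown. With the lone knockdown library assumed to vary like the others, edgeR called 11 of 41 members higher and 3 lower within this lane, or 9 and 3 of 39 without RSAD2 and OAS2, where 15.4% and 9.59% of all genes tested in that fit were called. With 1 library in an arm these counts compare libraries, not conditions.

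**Figure D3:**
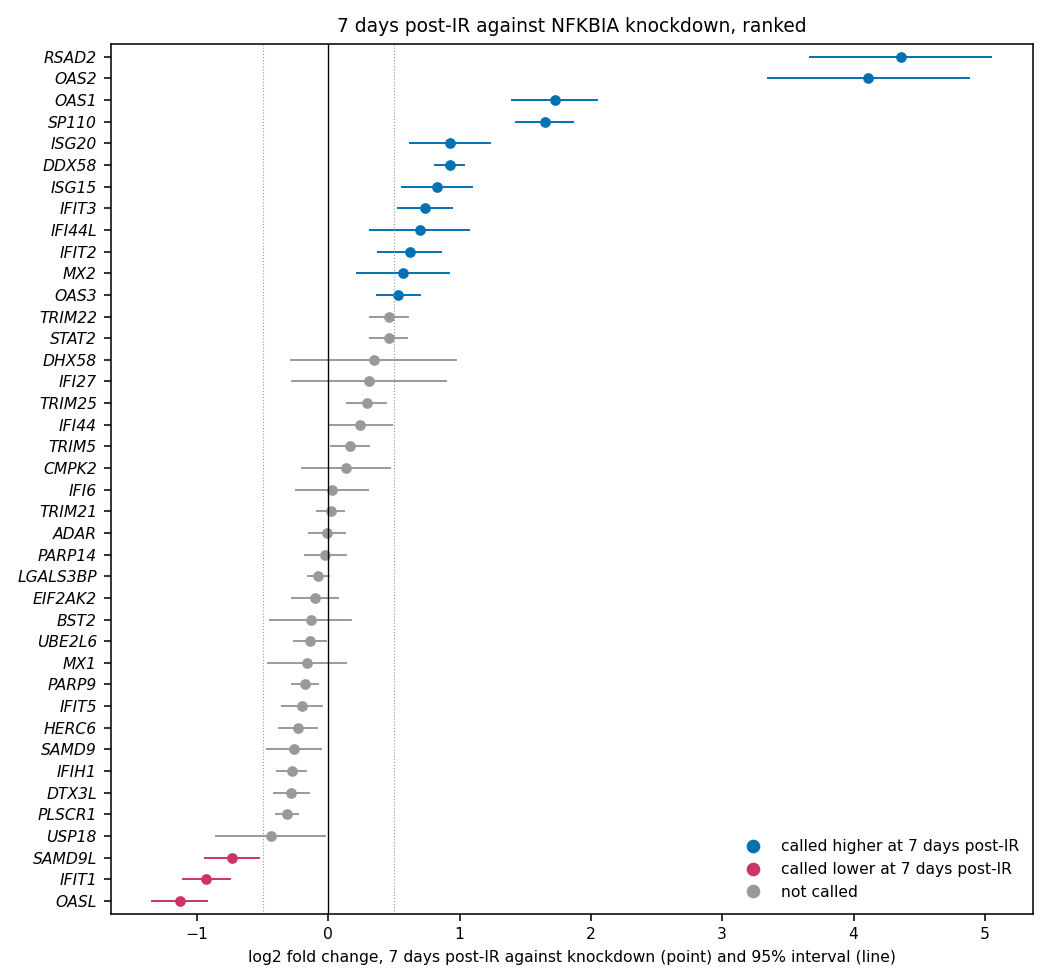
Log2 fold change of 7 days post-IR against the NFKBIA knockdown (point) with its 95% interval (line) for the 40 tested members, ranked. RSAD2 and OAS2 lie above 4, and OASL is lowest at -1.13.

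The IFIT proteins bind foreign RNA, and IFIT1 recognises capped RNA that lacks a methyl mark of host transcripts. IFIT1 was at 18.3, 15.8, 16.5, 22.2 and 14.1 CPM in untreated replicates 1 to 5 and at 13.8, 13.0, 13.3, 12.8 and 13.5 CPM at 1.5 h. In senescent cells, at 7 days, the values were 8.57, 8.25, 8.85, 9.65 and 8.63 CPM, and in the knockdown 17.2, 15.1, 16.8, 18.3 and 16.4 CPM. All 7 days libraries lay below those of the other 3 groups. The 1.5 h libraries also lay below all untreated ones, with a log2 fold change of -0.39 that was not called. The knockdown overlapped with untreated cells. The log2 fold change at 7 days was -0.99 (SE 0.09, edgeR adjusted p = 5.58e-09) against untreated cells and -0.93 (SE 0.09, edgeR adjusted p = 1.80e-08) against the knockdown. In the knockdown against untreated cells it was -0.06, with a 95% interval of -0.23 to 0.11.

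IFIT3, which acts in a complex with IFIT1, went the other way. It was at 4.42, 5.15, 5.15, 4.91 and 3.42 CPM in untreated cells and at 5.03, 3.95, 5.12, 4.89 and 5.78 CPM at 1.5 h. Its values were 14.5, 12.2, 16.4, 14.8 and 15.2 CPM at 7 days and 9.60, 8.07, 7.59, 9.13 and 9.49 CPM in the knockdown. Untreated, knockdown and 7 days libraries formed 3 steps without overlap. The fit gave a log2 fold change of 1.65 (SE 0.11, edgeR adjusted p = 4.02e-11) at 7 days, 0.91 (SE 0.11, edgeR adjusted p = 1.83e-06) in the knockdown and 0.74 (SE 0.10, edgeR adjusted p = 3.89e-06) between both. IFIT2, a partner of IFIT3, averaged 2.45 ± 0.391 CPM in untreated cells, 8.30 ± 0.744 CPM at 7 days and 5.42 ± 0.932 CPM in the knockdown, and was called in the same 3 comparisons. IFIT5, which binds RNA with uncapped ends, was called in neither against untreated cells (0.29 at 7 days and 0.48 in the knockdown).

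These genes lie side by side on chromosome 10, in the order IFIT2, IFIT3, IFIT1B, IFIT1 and IFIT5. Within a library, the log2 ratio of IFIT3 to IFIT1 in CPM was -1.90 ± 0.24 in untreated cells, -0.93 ± 0.14 in the knockdown and 0.73 ± 0.13 at 7 days. That of IFIT2 to IFIT1 was -2.80 ± 0.25, -1.63 ± 0.28 and -0.09 ± 0.07. These 3 groups did not overlap in either ratio, which is given as a description, since the pairs were chosen after their values were seen. IFIT1, IFIT2 and IFIT3 overlap LIPA on the other strand in GENCODE 29, and how the counting used the strand is not given in the sources used here.

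The OAS enzymes are switched on by double-stranded RNA and make oligoadenylates that activate RNase L. OAS1 was at 0.624, 0.941, 0.475, 0.626 and 1.09 CPM in untreated cells and at 0.610, 0.375, 0.506, 0.850 and 0.651 CPM at 1.5 h. At 7 days it was at 3.74, 4.24, 4.07, 4.35 and 3.79 CPM, above every library of the other groups, and in the knockdown at 1.29, 1.03, 1.28, 1.58 and 0.921 CPM, overlapping with untreated cells. In the fit the log2 fold change was 2.47 (SE 0.18, edgeR adjusted p = 1.49e-10) at 7 days, 0.74 (SE 0.21, edgeR adjusted p = 0.00694) in the knockdown and 1.73 (SE 0.17, edgeR adjusted p = 1.42e-08) between both.

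OAS2 had 12, 0, 4, 7 and 4 reads in the untreated libraries and 11, 6, 3, 7 and 5 at 1.5 h. At 7 days it had 48, 57, 79, 82 and 47 reads and in the knockdown 1, 3, 6, 1 and 6. Every 7 days library lay above all others, from 1.40 to 2.50 CPM. Scaled for effective library size, the ratio of the summed counts was 11.7 (interval 7.87 to 17.99) against untreated cells and 17.9 (interval 11.02 to 31.2) against the knockdown, with 95% intervals that cover counting error only. OAS2 passed the low-count filter only through the 7 days libraries, where it is high, so that its fitted log2 fold changes of 3.50 and 4.11 are given as a description. The knockdown against untreated cells was at -0.61 with an interval of -1.83 to 0.61, so that a change in either direction was not detectable at this depth.

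OASL, a relative without synthase activity that carries ubiquitin-like repeats, had the largest excess of the knockdown over 7 days. It was at 7.78, 5.51, 7.16, 7.51 and 4.47 CPM in untreated cells and at 5.23, 5.88, 6.41, 6.005 and 5.21 CPM at 1.5 h. The 7 days libraries held 7.14, 6.50, 6.83, 6.54 and 6.12 CPM and the knockdown libraries 14.1, 14.4, 14.3, 15.8 and 14.1 CPM. The knockdown libraries lay above all others, and the other 3 groups overlapped. The log2 fold change was 1.15 (SE 0.11, edgeR adjusted p = 3.66e-08) in the knockdown and -1.13 (SE 0.11, edgeR adjusted p = 1.10e-08) at 7 days against the knockdown. At 7 days against untreated cells it was 0.02, with an interval of -0.20 to 0.24. OAS3, the largest synthase, averaged 27.1 ± 3.96 CPM in untreated cells, 35.4 ± 3.51 CPM at 7 days and 24.5 ± 0.859 CPM in the knockdown. It was called between the last pair alone, with 0.53 (SE 0.09, edgeR adjusted p = 1.70e-05), and not without 7 days replicate 3 (0.47) or 4 (0.49). OAS1, OAS3 and OAS2 are neighbours on chromosome 12 and overlap an antisense gene in GENCODE 29.

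**Figure D4:**
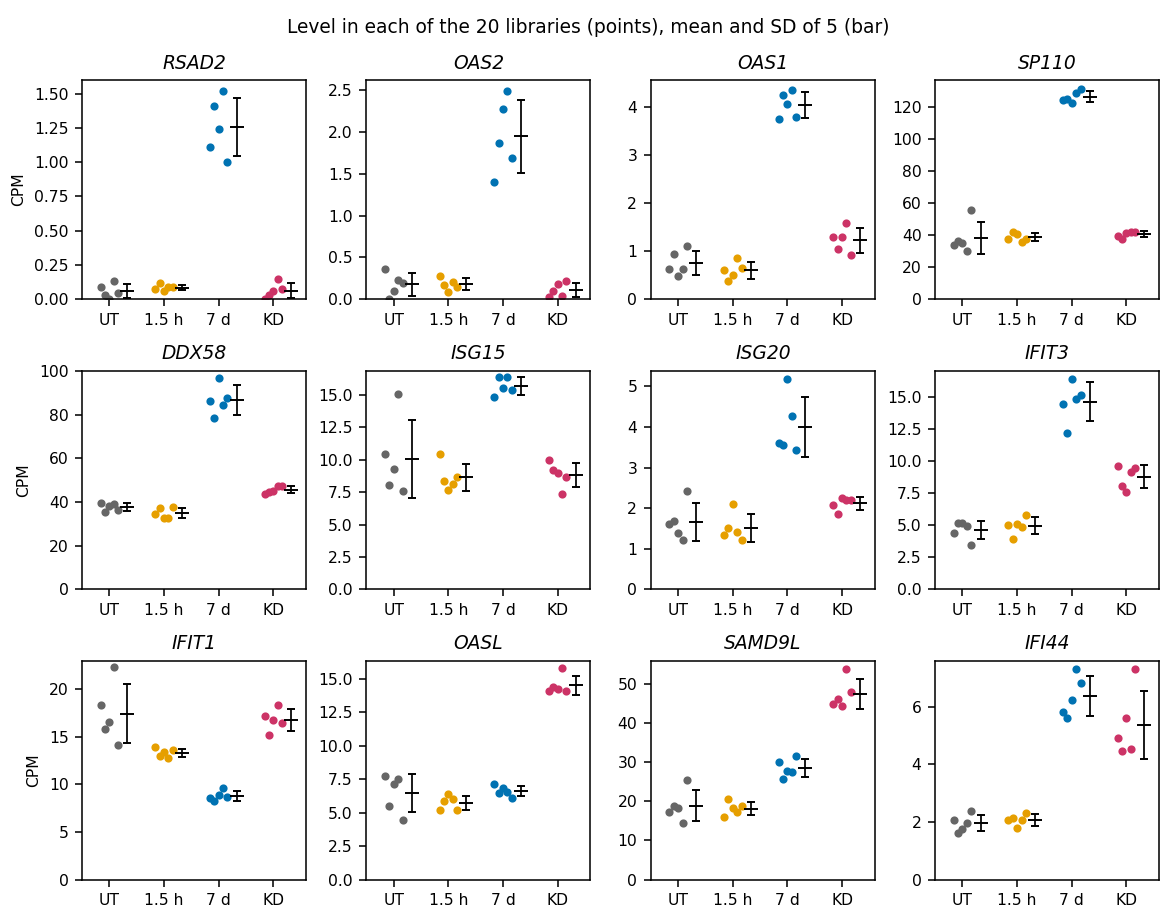
CPM of 12 members in each of the 20 libraries (points), with the mean and SD of 5 libraries per group. RSAD2, OAS2, OAS1 and SP110 are high at 7 days, OASL is high in the knockdown, and IFIT1 is low at 7 days.

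RSAD2 encodes viperin, an enzyme that makes a chain-terminating nucleotide against viral polymerases. It had 3, 1, 0, 4 and 1 reads in the untreated libraries, 3, 4, 2, 3 and 3 at 1.5 h and 0, 1, 2, 4 and 2 in the knockdown. At 7 days it had 38, 43, 43, 50 and 28 reads, or 1.003 to 1.52 CPM. The transcript was near the limit of detection outside the 7 days group. The ratio of the summed counts, scaled in the same way, was 22.6 (interval 11.7 to 50.1) against untreated cells and 21.9 (interval 11.3 to 48.5) against the knockdown. RSAD2, like OAS2, passed the low-count filter only through these libraries, and its fitted log2 fold changes of 4.40 and 4.36 are a description. CMPK2, a mitochondrial nucleotide kinase, lies next to RSAD2 on chromosome 2 and overlaps it. It averaged 1.33 ± 0.216 CPM in untreated cells, 1.18 ± 0.148 CPM at 7 days and 1.08 ± 0.175 CPM in the knockdown, and was called in neither (-0.14 and -0.28).

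ISG20, an exonuclease that degrades single-stranded RNA, was at 1.603, 1.69, 1.38, 1.22 and 2.43 CPM in untreated cells and at 1.35, 1.499, 2.11, 1.41 and 1.22 CPM at 1.5 h. At 7 days it was at 3.598, 3.55, 5.19, 4.26 and 3.44 CPM, above all other libraries, and in the knockdown at 2.09, 1.85, 2.24, 2.20 and 2.20 CPM, overlapping with untreated cells. On the log2 scale the fold change was 1.31 (SE 0.16, edgeR adjusted p = 5.00e-07) at 7 days and 0.93 (SE 0.16, edgeR adjusted p = 3.40e-05) against the knockdown. For the knockdown against untreated cells it was 0.38 and was not called. The kinase EIF2AK2 (PKR), which halts translation on double-stranded RNA, was at 0.05 and 0.15, and ADAR at -0.11 and -0.10, at 7 days and in the knockdown, and neither was called.

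Among the helicases that sense viral RNA, DDX58 (RIG-I) was called. It was at 39.4, 35.5, 38.1, 39.0 and 36.4 CPM in untreated cells and at 34.4, 37.1, 32.9, 32.9 and 37.7 CPM at 1.5 h. In senescent cells, at 7 days, the values were 86.2, 78.3, 97.1, 84.5 and 87.7 CPM, and in the knockdown 43.6, 44.8, 45.3, 47.5 and 47.4 CPM. The knockdown libraries lay above all untreated ones, and the 7 days libraries above both. The fit gave a log2 fold change of 1.20 (SE 0.06, edgeR adjusted p = 1.43e-13) at 7 days and 0.93 (SE 0.06, edgeR adjusted p = 1.18e-11) against the knockdown. For the knockdown against untreated cells it was 0.28 (SE 0.06, edgeR adjusted p = 0.000530), which missed the threshold on size. IFIH1 (MDA5) averaged 15.6 ± 0.676 CPM in untreated cells, 15.9 ± 1.43 CPM at 7 days and 19.4 ± 0.628 CPM in the knockdown (0.03 and 0.31, not called). DHX58 (LGP2), a regulator of both, was at 0.357 ± 0.123 CPM in untreated cells, and its interval of -0.17 to 1.10 at 7 days left a change undetectable at this depth.

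ISG15 is a ubiquitin-like protein that UBE2L6 and HERC5 attach to other proteins and USP18 removes. Its transcript was at 10.5, 8.03, 9.26, 15.1 and 7.56 CPM in untreated cells and at 10.4, 8.36, 7.68, 8.17 and 8.64 CPM at 1.5 h. Its values were 14.8, 16.4, 15.5, 16.4 and 15.4 CPM at 7 days and 9.98, 9.19, 8.998, 7.37 and 8.68 CPM in the knockdown. The 7 days libraries lay above those of the other groups except for untreated replicate 4, which was higher than the lowest of them. In the fit the log2 fold change was 0.64 (SE 0.13, edgeR adjusted p = 0.000317) against untreated cells and 0.83 (SE 0.14, edgeR adjusted p = 2.41e-05) against the knockdown. For the knockdown against untreated cells it was -0.19, with an interval of -0.46 to 0.08.

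UBE2L6 was higher in both groups, at 35.2 ± 2.21 CPM in untreated cells, 52.5 ± 5.26 CPM at 7 days and 57.9 ± 2.85 CPM in the knockdown. Between the last pair the log2 fold change was -0.14 (interval -0.26 to -0.02) and was not called. USP18 was at 1.31 ± 0.258 CPM in untreated cells and 0.983 ± 0.369 CPM at 7 days and was not called (-0.41), but was called lower without untreated replicate 2 (-0.52), 7 days replicate 3 (-0.54) or 7 days replicate 4 (-0.59). HERC6, a relative of HERC5, was at -0.20 and 0.03 and TRIM25 at 0.38 and 0.08, at 7 days and in the knockdown, and neither was called. HERC5 was too low to be tested, with 2, 0, 0, 1 and 0 reads in untreated cells, 0, 1, 0, 1 and 0 in the knockdown and 7, 3, 7, 3 and 5 at 7 days. The ratio of its summed counts at 7 days to untreated cells, scaled for library size, was 8.39 (interval 2.56 to 43.4). This interval covers counting error only and not the spread between replicates. No such ratio was taken for the other untested members.

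SP110, a protein of nuclear bodies, was at 33.9, 36.3, 35.1, 29.8 and 55.6 CPM in untreated cells and at 37.3, 41.7, 40.9, 35.9 and 37.8 CPM at 1.5 h. The 7 days libraries held 124, 125, 123, 129 and 132 CPM and the knockdown libraries 39.5, 37.5, 41.2, 41.9 and 41.8 CPM. The 7 days libraries stood far above all others, and the highest untreated value was that of replicate 5. The log2 fold change was 1.73 (SE 0.11, edgeR adjusted p = 1.48e-11) against untreated cells, 1.88 without that replicate, and 1.65 (SE 0.11, edgeR adjusted p = 4.00e-11) against the knockdown. For the knockdown against untreated cells it was 0.09, with an interval of -0.12 to 0.30. TRIM22 was at 140.2 ± 5.68 CPM at 7 days and 102 ± 3.005 CPM in the knockdown, with 0.82 (SE 0.07, edgeR adjusted p = 4.13e-09) at 7 days and 0.36, not called, in the knockdown. TRIM5, a restriction factor of retroviral capsids that overlaps TRIM22 on the other strand, was at 0.02 and -0.15. TRIM21, a cytosolic antibody receptor, was at 0.06 and 0.04.

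PARP9 and DTX3L form an ADP-ribosylation complex, and PARP14 is a related enzyme. At 7 days the log2 fold changes were 0.01, 0.09 and 0.12, and in the knockdown 0.19, 0.38 and 0.15. None of these 3 genes was called in either comparison.

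IFI44 had the largest log2 fold change of the set in the knockdown. It was at 2.08, 1.63, 1.75, 1.98 and 2.38 CPM in untreated cells and at 2.06, 2.13, 1.77, 2.05 and 2.32 CPM at 1.5 h. In senescent cells, at 7 days, the values were 5.82, 5.62, 6.23, 7.30 and 6.80 CPM, and in the knockdown 4.92, 4.46, 5.62, 4.54 and 7.30 CPM. Both groups lay above untreated cells and overlapped with each other. On the log2 scale the fold change was 1.71 (SE 0.13, edgeR adjusted p = 5.12e-10) at 7 days and 1.47 (SE 0.14, edgeR adjusted p = 3.72e-08) in the knockdown. The difference between both was 0.24 (interval 0.01 to 0.48, edgeR adjusted p = 0.0883) and was not called.

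IFI44L, the neighbour of IFI44 on chromosome 1, averaged 0.812 ± 0.262 CPM in untreated cells, 1.88 ± 0.369 CPM at 7 days and 1.15 ± 0.216 CPM in the knockdown. Its log2 fold change was 1.25 (SE 0.20, edgeR adjusted p = 1.92e-05) at 7 days, 0.56 (SE 0.22, edgeR adjusted p = 0.0488) in the knockdown and 0.69 (SE 0.19, edgeR adjusted p = 0.00416) between both. The call in the knockdown was lost with RLE factors (edgeR adjusted p = 0.0542) and without any one of untreated replicates 1 to 4 or of knockdown replicates 1, 3 and 4 (0.46 to 0.61). IFI6, which counters cell death, averaged 20.8 ± 6.44 CPM in untreated cells, 31.9 ± 2.13 CPM at 7 days and 31.3 ± 2.48 CPM in the knockdown. Its calls, 0.61 and 0.58, were lost without untreated replicate 5 (0.44 and 0.42). IFI27 was at 0.420 ± 0.0897 CPM in untreated cells and was not called (0.13 and -0.18).

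SAMD9L, an antiviral factor that blocks translation, was higher in the knockdown than at 7 days. It was at 17.3, 18.8, 18.3, 14.5 and 25.5 CPM in untreated cells and at 16.1, 20.5, 18.3, 17.1 and 18.7 CPM at 1.5 h. Its values were 30.1, 25.7, 27.6, 27.4 and 31.6 CPM at 7 days and 44.8, 46.1, 44.3, 53.9 and 47.9 CPM in the knockdown. Untreated, 7 days and knockdown libraries did not overlap. The fit gave a log2 fold change of 1.33 (SE 0.11, edgeR adjusted p = 4.03e-09) in the knockdown, 0.60 (SE 0.11, edgeR adjusted p = 4.82e-05) at 7 days and -0.73 (SE 0.10, edgeR adjusted p = 3.63e-06) at 7 days against the knockdown. The 7 days call against untreated cells was lost without untreated replicate 4 (0.49). Its neighbour and paralog SAMD9 averaged 43.9 ± 10.3 CPM in untreated cells, 45.1 ± 2.49 CPM at 7 days and 54.1 ± 2.16 CPM in the knockdown, and was not called. The log2 ratio of SAMD9L to SAMD9 within a library was -1.21 ± 0.05 in untreated cells, -0.67 ± 0.08 at 7 days and -0.20 ± 0.06 in the knockdown, without overlap.

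BST2 encodes tetherin, which holds budding virions at the cell membrane. It was at 0.713, 0.830, 0.525, 0.890 and 0.761 CPM in untreated cells and at 0.813, 0.548, 0.534, 0.381 and 0.510 CPM at 1.5 h. The 7 days libraries held 1.26, 1.84, 1.73, 1.55 and 1.54 CPM and the knockdown libraries 1.44, 1.55, 1.58, 2.05 and 2.13 CPM. Both groups lay above all untreated libraries and overlapped with each other. In the fit the log2 fold change was 1.10 (SE 0.18, edgeR adjusted p = 1.69e-05) at 7 days and 1.24 (SE 0.18, edgeR adjusted p = 1.15e-05) in the knockdown. Between both it was -0.13, with an interval of -0.44 to 0.17.

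LGALS3BP averaged 291 ± 14.8 CPM in untreated cells, 394 ± 7.62 CPM at 7 days and 415 ± 11.1 CPM in the knockdown. Its log2 fold changes of 0.43 at 7 days and 0.51 in the knockdown lay on either side of the threshold, and the difference between both was -0.08 (interval -0.15 to 0.00). The call in the knockdown was lost in DESeq2 and without untreated replicate 4 or 5 (0.47 without the latter). PLSCR1, a phospholipid scramblase, was not called (-0.28 and 0.04). MX2, a GTPase that restricts retroviruses, was at 1.02 ± 0.193 CPM in untreated cells and 1.45 ± 0.324 CPM at 7 days, with 0.51 (SE 0.18, edgeR adjusted p = 0.0162). This call was lost without untreated replicate 2 or 4 or 7 days replicate 1, 3 or 5 (0.41 to 0.49). MX1, its neighbour on chromosome 21, was not called (0.05 and 0.21). IFI35, RTP4, EPSTI1 and XAF1 could not be tested, with at most 10, 16, 3 and 8 reads in any library, and EPSTI1 had 0 reads in all libraries at 1.5 h, under the limit of 3 reads.

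STAT2, the transducer among the members, averaged 98.3 ± 14.0 CPM in untreated cells, 154 ± 2.79 CPM at 7 days and 112 ± 2.67 CPM in the knockdown. The log2 fold change was 0.64 (SE 0.07, edgeR adjusted p = 1.27e-07) at 7 days and 0.18, not called, in the knockdown. The 7 days libraries did not overlap with untreated cells.

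The genes of the pathway around the members were counted by role, and their calls are to be read against 16.7% of all genes called higher and 14.4% lower at 7 days, and 5.18% and 7.53% in the knockdown. Of 15 interferon ligand genes in the table, 12 had 0 counts in all 20 libraries, and IFNE, an epithelial type I interferon, was the only one tested. Its mean level was 0.267 ± 0.0732 CPM without treatment, 0.236 ± 0.105 CPM at 1.5 h, 0.940 ± 0.190 CPM at 7 days and 0.333 ± 0.114 CPM in the knockdown. On the log2 scale the fold change was 1.80 (SE 0.26, edgeR adjusted p = 4.76e-06) at 7 days and 1.505 (SE 0.26, edgeR adjusted p = 3.49e-05) against the knockdown. Of the 6 receptor genes, IFNLR1, a subunit of the type III receptor, was lower at 7 days (-1.04, SE 0.09, edgeR adjusted p = 2.18e-09) and 0 were called in the knockdown. Of 6 JAK-STAT transducers outside the set, 0 were called at 7 days or in the knockdown, with IRF9 at 0.33 and 0.08.

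Of 6 negative regulators, 1 was higher and 3 were lower at 7 days, where 16.7% and 14.4% of all genes were called. SOCS1, a feedback inhibitor of JAK kinases, was lowest with -2.41 (SE 0.19, edgeR adjusted p = 6.41e-10), and SOCS3 was at -1.37. The phosphatase PTPN6 was higher (1.58). The call of PIAS1 (-0.61) was lost without untreated replicate 5, which leaves 2 lower. SOCS1 and SOCS3 were already lower at 1.5 h (-0.56 and -0.58), and 0 of the 6 were called in the knockdown. Of 5 tested IRF genes, IRF1, a target of both interferon and NF-κB, rose at 1.5 h from 31.1 ± 1.25 to 75.4 ± 3.64 CPM (1.28, SE 0.05, edgeR adjusted p = 3.15e-14). IRF5 was higher at 7 days (0.52) but not without untreated replicate 5, and 0 were called in the knockdown. Of 8 tested sensor adaptors and kinases, the DNA-sensing adaptor TMEM173 (STING, 1.17), the endosomal RNA receptor TLR3 (1.05) and the DNA-binding IFI16 (0.79) were higher at 7 days, and TMEM173 was also higher in the knockdown (0.86). The DNA sensor MB21D1 (cGAS) was higher at 1.5 h (0.68). Without untreated replicate 5 the adaptor MAVS was called as well at 7 days (0.51 in place of 0.36).

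A second list of 45 interferon-stimulated genes outside the members was also chosen with earlier results of these data known. Of these, 39 were tested, and 16 were higher and 1 lower at 7 days, where 16.7% and 14.4% of all genes tested were called. The median was 0.39, against 0.01 for all genes. In the knockdown 5 were higher and 0 lower, where 5.18% and 7.53% of all genes tested were called. Here the median was 0.18, against -0.01 for all genes. Against each other, 8 were higher at 7 days and 3 in the knockdown, near the 15.8% and 9.89% of all genes tested. The largest calls at 7 days were the death ligand TNFSF10 (2.97), the transcription factor BATF2 (1.996), the GTPase GBP2 (1.82) and SLFN11 (1.57), a factor that blocks stressed replication forks. Whether genes of this list passed the low-count filter only through the 7 days libraries was not checked. In the knockdown GBP2 (1.35) led, followed by the apolipoproteins APOL1 (0.80) and APOL3 (0.74) and the immunoproteasome subunit PSMB9 (0.66). PSMB9 was higher in the knockdown than at 7 days (-1.15), and TNFSF10 was higher at 7 days (3.89). Without untreated replicate 5 the counts were 15 and 1 at 7 days and 6 and 0 in the knockdown, and the shares of all genes in that fit are not given.

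The later and the earlier irradiated groups were also compared. At 7 days 18 members were higher than at 1.5 h and 3 were lower, where 16.8% and 12.6% of all genes tested were called, and the median was 0.32, against 0.01 for all genes. RSAD2 (3.85), OAS2 (3.42) and OAS1 (2.75, SE 0.18, edgeR adjusted p = 3.40e-11) had the largest values, and without RSAD2 and OAS2 the counts were 16 and 3. IFIT1 (-0.60), USP18 (-0.64) and CMPK2 (-0.51) were lower. Within lane 4, with 2 libraries of each group, 19 of 40 members were higher and 2 lower, or 17 and 2 of 38 without RSAD2 and OAS2, where 16.2% and 12.9% of all genes tested in that fit were called.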

How the data were processed

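Gene counts of 20 libraries were deposited by the authors as 1 table of raw counts per gene with gene symbols and widths. The methods of the study give stranded mRNA libraries sequenced as single reads, and the submitters' processing notes name bcl2fastq, Trimmomatic, STAR 2.4.2a and hg19. The read counter and its strand setting are not given in the sources used here. Groups came from the sample titles and lanes from the sample descriptions. The 45 members and all lists were chosen with earlier results of these data known.

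Counts were fitted with edgeR 4.0.16 (R 4.3.3): filterByExpr with a minimum count of 10 kept 14992 genes, TMM factors, 1 quasi-likelihood model over all 20 libraries, Benjamini-Hochberg adjustment over all genes tested, and a call at a log2 fold change over 0.5 in size with adjusted p under 0.05. CPM are TMM-scaled, RPKM use the authors' gene width, and intervals of fold changes are 1.96 SE on either side. Count ratios are divided by the ratio of the groups' summed TMM-effective library sizes and carry exact Poisson 95% intervals, which cover counting error only. Depth ranged from 22535659 to 40390961 counts. Values in every library are given for the 10 members with the largest calls between 7 days and knockdown and the 3 largest in each other comparison, and neighbour ratios were chosen after their values were seen. Alternatives were RLE, upper-quartile and library-size scaling, DESeq2 1.42.0, other filters and thresholds, a lane factor, single lanes, the compared groups alone, a replicate block, and each library left out. Promoters are from RefSeq (GRCh38.p14), overlaps from GENCODE 29.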

Additional observations from a re-analysis of the deposited data

Results flagged for a closer look

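In 11 of 160 groups of 5 libraries, 1 library lay apart from the other 4, with a gap over 0.71 of the group's range, and chance gives about 1 in 20 such groups. Of these, 3 were among untreated cells (2 of them replicate 5), 4 at 1.5 h, 2 at 7 days and 2 in the knockdown. Replicate 5 of untreated cells was high for TRIM5 (gap 0.738) and low for TRIM22 (gap 0.736), and replicate 2 was low for TRIM21 (gap 0.712). Replicate 1 at 1.5 h was low for UBE2L6 (gap 0.812), DTX3L (gap 0.724), PARP14 (gap 0.72) and ADAR (gap 0.886). Replicate 3 at 7 days was high for IFIT5 (gap 0.752, 28.2 CPM) and IFIH1 (gap 0.782, 18.4 CPM). In the knockdown replicate 4 was high for OASL (gap 0.812, 15.8 CPM) and replicate 2 low for USP18 (gap 0.91, 1.001 CPM).

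The effect of irradiation against untreated cells differed between 7 days and 1.5 h for 21 members (edgeR, the direct contrast of both groups), 18 higher and 3 lower, where 16.8% of all genes tested were higher and 12.6% lower. It was higher at 7 days for RSAD2 (3.85 on the log2 scale), OAS2 (3.42), OAS1 (2.75), IFIT2 (2.12), SP110 (1.71), IFI44 (1.62), IFIT3 (1.56), BST2 (1.49), IFI44L (1.43), ISG20 (1.41) and DDX58 (1.31). Smaller differences in this direction were found for ISG15 (0.86), MX2 (0.83), UBE2L6 (0.81), IFI6 (0.67), SAMD9L (0.65), STAT2 (0.64) and LGALS3BP (0.56). RSAD2 and OAS2 passed the low-count filter only through the 7 days libraries. It was lower at 7 days for USP18 (-0.64), IFIT1 (-0.60) and CMPK2 (-0.51). The call of CMPK2 was lost without any one of replicates 1 to 3 at 1.5 h or replicates 2 and 5 at 7 days, and with the lane as a factor (-0.24).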

How the results depend on the processing

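With a replicate block the calls were 18 higher and 1 lower at 7 days against untreated cells, 11 and 0 in the knockdown, 12 and 3 between both, 18 and 3 at 7 days against 1.5 h, and 0 and 0 at 1.5 h, as without it. The shares of all genes with this block are not given. Equal replicate numbers did not pair the libraries: of 30 correlations of their deviations, 2 were over 0.1 (range -0.254 to 0.123). Every lane-adjusted or lane 3 value against untreated cells rests on untreated replicate 5 alone, the library that stands apart, with the spread taken from other libraries. Lane 6 held knockdown libraries alone, so that every lane-adjusted value of the knockdown rests on knockdown replicate 1. Counts from these fits that involve either group compare libraries, not conditions. With the lane as a factor 2 members were called higher and 2 lower at 1.5 h (11.9% and 13.6% of all genes), 19 and 2 at 7 days against untreated cells (21.8% and 19.5%), 8 and 0 in the knockdown (13.3% and 14%), 10 and 3 at 7 days against the knockdown (14.5% and 9.14%), and 19 and 2 against 1.5 h (15.7% and 11.8%). IFI6 at 1.5 h turned to 0.83 with the lane as a factor and 0.82 within lane 3, and OAS1 in the knockdown to -0.37, where replicate 5 had the lowest IFI6 (11.3 CPM) and the highest OAS1 (1.09 CPM) of its group. Within lane 3, 2 were higher and 1 lower at 1.5 h (11.2% and 13.7% of all genes). With adjusted p alone 1 was higher and 3 lower at 1.5 h (11.1% and 10.2% of all genes), 22 and 3 at 7 days against untreated cells (32.9% and 31.2%), 19 and 0 in the knockdown (19.5% and 21.1%), 15 and 10 at 7 days against the knockdown (29.7% and 27.7%), and 22 and 5 against 1.5 h (32% and 28.9%). With a log2 fold change above 1, 11 were higher and 0 lower at 7 days against untreated cells (7.64% and 4.54% of all genes), 5 and 0 in the knockdown (1.45% and 2.05%), 4 and 1 between both (7.44% and 2.77%), and 11 and 0 against 1.5 h (7.46% and 3.38%). RSAD2 and OAS2, which passed the filter only through the 7 days libraries, are 2 of the 11, of the 4 and of the 11 at 7 days. Leaving out single libraries gave 1 to 2 lower at 7 days against untreated cells, without the shares of all genes in those fits. The causes of the other shifts were not tested. Depth limits RSAD2, OAS2, DHX58 and the 5 untested members, whose untreated libraries held few counts.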
